A study of Rattus norvegicus with 6 samples.

Results

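The genes described are the DNA methylation machinery of rat Schwann cells: Uhrf1 and its paralog Uhrf2, the DNA methyltransferases Dnmt1, Dnmt3a and Dnmt3b, the dioxygenases Tet1, Tet2 and Tet3, the remodelling ATPase Hells and the methyl-CpG binding protein Mbd2. They were taken by symbol from the count files, which held 7 of the 10 names among 17327 genes. For Tet1, Tet2 and Tet3 only the start-site sequences were examined here. The set was selected on the measured fold changes between NRG1 and mock in these same samples, so the counts and fold changes of its genes are given as a description, with no test.

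DNA methylation marks cytosines in CpG pairs and is copied at each round of DNA replication. UHRF1 binds the hemimethylated CpG behind the replication fork and recruits DNMT1, which methylates the daughter strand, while DNMT3A and DNMT3B set new marks and the TET enzymes oxidise existing ones. HELLS opens chromatin for methylation, and MBD2 binds methylated CpG and brings the NuRD repressor complex to it.

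The study asked which genes soluble neuregulin 1 (NRG1), a growth factor that signals to Schwann cells through ErbB receptors, regulates in these myelin-forming glia of peripheral nerves. Poly(A) RNA was sequenced from primary Schwann cells of adult Wistar rats in 3 independent experiments. Each gave 1 mock and 1 NRG1 sample with the same replicate number. Before starvation the cells of all cultures had been grown with serum, forskolin and a neuregulin, which the labels call glial growth factor and the study's methods NRG1β1. All 6 cultures were held for 18 h in medium with 2% serum and 10 µM forskolin, which raises cAMP. For the 6 h that followed, the NRG1 cultures received 10 nM recombinant NRG1β1 and the mock cultures its buffer, both still with forskolin. No culture without forskolin was compared, and whether an experiment pooled several animals is not given in the sources used here.

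Gene counts summed to between 6821590 and 15475018 per library. Levels are in CPM, counts scaled to library size after TMM normalization, and 3 counts corresponded to between 0.194 and 0.444 CPM. CPM is not corrected for transcript length, so a level is compared only within a gene. All 10 Schwann cell markers examined were detected in every library. The markers summed to 6389, 16948 and 16441 CPM in mock samples 1, 2 and 3. In NRG1 samples 1, 2 and 3 the markers summed to 5178, 13161 and 13796 CPM, lower in each pair. Replicate 1 had the lowest sum of each group. Among those named here S100b, Egr2 and Cdh19 fell at an adjusted p of at most 0.01 by edgeR. The call of S100b was lost without replicate 1 (adjusted p = 0.057) or replicate 3 (adjusted p = 0.14). Of the 10 markers, 6 were not past this threshold. Among these, log2 fold changes were 0.11 for Sox10, 0.08 for Ngfr, 0.03 for Ncam1, -0.21 for Erbb3 and -0.40 for Gfap. The part of these markers in the results below was not tested. Replicate 1 stood apart. Of 8 fibroblast markers, 7 were over 3 counts in both of its libraries, against 3 or 4 of 8 in the other 4, and without the collagens they summed to 2720 CPM in mock 1 and 2372 CPM in NRG1 1, against 3.93 to 8.50 CPM elsewhere. Thy1, Dcn and Lum were at 0 in the libraries of replicates 2 and 3. With the collagens the list summed to 14060 to 52270 CPM in mock and 13687 to 56589 CPM in NRG1 samples. Macrophage markers summed to 3.23 to 10.1 CPM, with Ptprc, Adgre1 and Cd163 at 0 in every library, and endothelial markers to 6.40 to 15.4 CPM, with Pecam1, Cdh5 and Emcn at 0. Most of the endothelial sum was Tek, at 44 to 136 counts per library. A listing at 0 in every library need not be a measure of absence, as set out below for Hells. Because replicate 1 stood apart, fold changes without it are given for the genes of the set and for the partners called. In bulk RNA, fewer cells of a type and less RNA per cell cannot be told apart.

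The start-site sequences of Uhrf1 are shown because it was the gene of the set with the highest fold change, and those of Uhrf2 and Dnmt1 because they are its paralog and its partner in maintenance methylation. RefSeq windows on the rat GRCr8 build run from 250 bases before to 50 bases after an annotated start, and the position of a motif is that of its base nearest the upstream end, relative to the start. The capitals mark a 7-base core of the site bound by E2F factors, which drive many S phase genes. The spelling TTCCCGC was searched on either strand, as was the spelling TTCGCGC, and so were the rarer TTGCCGC and, as the last of the 4, the spelling TTGGCGC. The reads had been mapped to an earlier build, and which start the counted transcripts used is not known.
Uhrf1 window 2, chr9:1222050-1222349, plus strand: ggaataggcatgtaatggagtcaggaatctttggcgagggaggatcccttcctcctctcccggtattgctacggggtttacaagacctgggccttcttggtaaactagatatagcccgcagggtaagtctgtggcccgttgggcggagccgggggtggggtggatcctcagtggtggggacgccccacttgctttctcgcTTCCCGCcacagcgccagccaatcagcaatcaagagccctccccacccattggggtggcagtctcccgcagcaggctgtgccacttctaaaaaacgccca
Uhrf1 window 3, chr9:1222936-1223235, plus strand: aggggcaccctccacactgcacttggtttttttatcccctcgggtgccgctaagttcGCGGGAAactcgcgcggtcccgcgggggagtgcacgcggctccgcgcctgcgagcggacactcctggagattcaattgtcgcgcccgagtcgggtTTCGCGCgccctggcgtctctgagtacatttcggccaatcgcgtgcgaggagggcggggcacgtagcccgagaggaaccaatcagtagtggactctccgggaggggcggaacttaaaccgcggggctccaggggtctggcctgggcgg
Uhrf2, chr1:237228225-237228524, plus strand: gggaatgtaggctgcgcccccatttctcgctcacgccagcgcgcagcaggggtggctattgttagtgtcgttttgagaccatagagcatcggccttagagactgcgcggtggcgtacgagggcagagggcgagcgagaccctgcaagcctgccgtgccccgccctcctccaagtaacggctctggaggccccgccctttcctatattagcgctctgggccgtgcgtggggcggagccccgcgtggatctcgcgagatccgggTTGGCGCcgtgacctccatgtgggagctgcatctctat
Dnmt1, chr8:27762792-27763091, minus strand: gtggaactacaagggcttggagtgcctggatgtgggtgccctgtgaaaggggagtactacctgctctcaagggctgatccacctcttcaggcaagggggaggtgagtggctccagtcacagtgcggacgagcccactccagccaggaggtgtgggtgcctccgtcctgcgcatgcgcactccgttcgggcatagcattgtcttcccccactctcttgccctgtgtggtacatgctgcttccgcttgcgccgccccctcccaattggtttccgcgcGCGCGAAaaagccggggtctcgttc

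Uhrf1 had 3 annotated windows, of which window 3 was the richest in CpG, with 35 CpG pairs against a median of 7 over the 33469 rat windows, more than in 93.9% of them. It held an E2F core at -193 on the opposite strand and another at -98, and window 2 held a core at -50 among 13 CpG pairs. Window 1, chr9:1221813-1222112, held no core and shared 63 bases with window 2. Uhrf2 had 28 CpG pairs and a core at 12, and Dnmt1 had 17 CpG pairs and a core at 25 on the opposite strand. No core was found in the windows of Dnmt3a, Mbd2, Tet1, Tet2 or Tet3, while that of Hells held cores at -28 and -10. No window was examined for Dnmt3b. Over all windows, 9.52% held at least 1 such core. Each spelling itself holds a CpG pair, and this share is not matched for the CpG content of a window. A core is a match of letters and was not tested for binding.

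Uhrf1 was higher in NRG1 than in mock samples in every pair, and no other gene of the set approached its fold. In replicates 1, 2 and 3, respectively, mock cultures gave 34, 43 and 72 counts and NRG1 cultures 96, 148 and 262, which are levels of 4.44, 6.36 and 5.67 CPM against 12.5, 16.6 and 16.9 CPM. The lowest NRG1 sample lay above the highest mock sample, so the groups did not overlap. The mean level was 5.49 ± 0.969 CPM (n = 3, SD) for mock and 15.4 ± 2.44 CPM (n = 3, SD) with NRG1. The fitted log2 fold change was 1.49 (SE 0.19), a 2.81-fold difference, with log2 ratios of 1.46, 1.36 and 1.54 in pairs 1, 2 and 3. Among the mock samples the highest level was 1.43 times the lowest. Without replicate 1, the pair with fibroblast transcripts, the log2 fold change was also 1.49. Its place was 51 of 9740 when genes were ordered by fold change.

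The study's rule for a regulated gene asked for a log2 fold change over 1 and an adjusted p no higher than 0.01. Of the 6 genes of the set that passed the filter on low counts, Uhrf1 met the rule and the other 5 met neither part of it, which restates the values that chose the set and is no test of it. Over all 9740 genes tested by edgeR, 152 (1.56%) were past both thresholds upwards and 186 (1.91%) downwards. The study applied its rule to a DESeq2 fit, so these are not the counts it reported. The groups did not overlap for Uhrf1 alone among the 6, while over all genes 9.79% were higher and 9.86% lower in NRG1 samples without overlap. Since the set was chosen with this contrast in view, nothing is read from these shares. The median log2 fold change of the 6 genes was 0.04, beside -0.03 for all genes tested.

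Uhrf2 encodes a protein with the same domains as UHRF1 that does not replace it in maintenance methylation. Its levels were 131.6, 106.6 and 103.4 CPM in mock and 126.2, 110.3 and 109.9 CPM in NRG1 samples. The groups overlapped, and replicate 1 was the highest sample of each. The means were 113.9 ± 15.4 CPM (n = 3, SD) and 115.5 ± 9.32 CPM (n = 3, SD), with a log2 fold change of 0.02 (SE 0.11) and pair ratios of -0.06, 0.05 and 0.09. Without replicate 1 it was 0.07, and without either of the others 0.01 to 0.02. As counts not corrected for length, Uhrf1 made up 3.27% (95% Wilson interval 2.35 to 4.53), 5.63% (4.21 to 7.50) and 5.19% (4.15 to 6.49) of the reads of the pair of paralogs in mock samples 1, 2 and 3. In NRG1 samples 1, 2 and 3 its share was 9.04% (7.46 to 10.9), 13.1% (11.3 to 15.2) and 13.3% (11.9 to 14.9). The intervals cover counting error only, and the shares describe the contrast that chose the set.

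**Figure D1:**
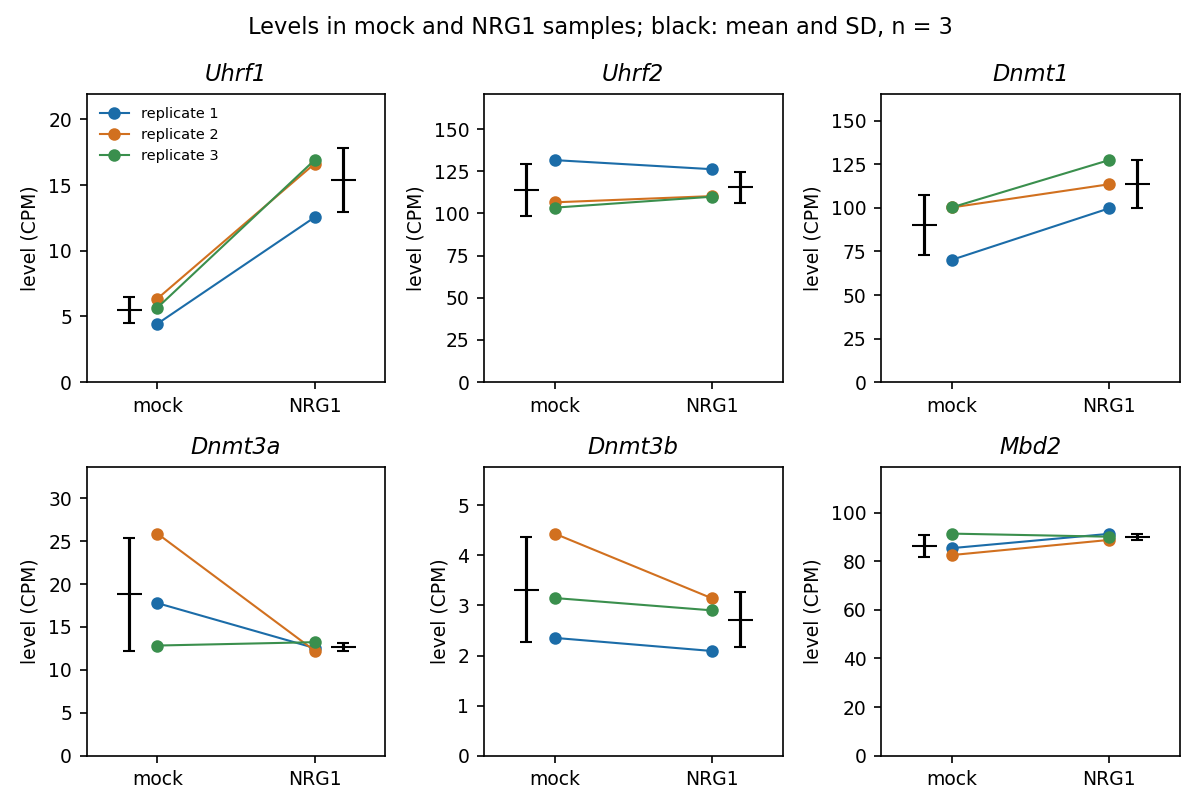
Level in CPM (vertical axis, from 0, a separate scale for each gene) in the 3 mock and 3 NRG1 samples of the 6 genes tested. Coloured points joined by lines are the samples of a replicate pair, and black bars are the mean and SD (n = 3). Uhrf1 lies at 4.44 to 6.36 CPM in mock and 12.5 to 16.9 CPM in NRG1 samples, and the groups of the other 5 genes overlap.

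Dnmt1, the maintenance methyltransferase that UHRF1 recruits, had levels of 70.2, 100.2 and 100.3 CPM in mock and 99.7, 113.5 and 127.4 CPM in NRG1 samples. NRG1 was the higher sample in each pair, but NRG1 sample 1 lay just under mock samples 2 and 3, so the groups overlapped. The means were 90.2 ± 17.4 CPM (n = 3, SD) and 113.6 ± 13.8 CPM (n = 3, SD), and the log2 fold change was 0.34 (SE 0.12), with pair ratios of 0.51, 0.18 and 0.34. Without replicate 1 the log2 fold change was 0.27. Its fold of 1.27 was past neither threshold.

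The de novo methyltransferases had their highest level in a mock sample. Dnmt3a, which sets new marks in many differentiated cells, was at 17.8, 25.9 and 12.8 CPM in mock and 12.5, 12.2 and 13.2 CPM in NRG1 samples. Mock sample 2 was 2.02 times mock sample 3, whereas the NRG1 samples lay close together, and mock 3 fell within their range. The means were 18.8 ± 6.58 CPM (n = 3, SD) and 12.7 ± 0.503 CPM (n = 3, SD), with a log2 fold change of -0.50 (SE 0.20). The pair ratios were -0.50, -1.07 and 0.04, so pair 3 did not share the direction of the others. Without replicate 2 the log2 fold change was -0.20, without replicate 3 it was -0.78 and without replicate 1 it was -0.49. Dnmt3b, the other de novo enzyme, was counted at 16 to 45 reads per library, at 2.35, 4.44 and 3.15 CPM in mock and 2.09, 3.14 and 2.90 CPM in NRG1 samples. These groups overlapped too, with means of 3.31 ± 1.05 CPM (n = 3, SD) and 2.71 ± 0.552 CPM (n = 3, SD). The log2 fold change was -0.26 (SE 0.28), smaller than its error, and pairs 1, 2 and 3 gave -0.16, -0.47 and -0.11. Without replicate 1 it was -0.28, without replicate 2 -0.13 and without replicate 3 -0.34. Dnmt3b took 11.7% to 19.7% of the reads of the 2 de novo genes in mock and 14.3% to 20.4% in NRG1 samples, ranges that overlapped.

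Mbd2, the reader of methylated CpG, varied least among the mock samples, where its highest level was 1.11 times its lowest. It was at 85.4, 82.5 and 91.3 CPM in mock and 91.2, 88.7 and 90.1 CPM in NRG1 samples, and the groups overlapped. The means were 86.4 ± 4.50 CPM (n = 3, SD) and 90.0 ± 1.25 CPM (n = 3, SD), with a log2 fold change of 0.06 (SE 0.11), which was 0.04 without replicate 1 and 0.12 without replicate 3. Hells, the remodeller of the set, was listed at 0 in all 6 libraries. A listing at 0 in these files need not be a measure of absence, since Col1a2 was at 0 to 2 counts in libraries that held at least 119349 counts of Col1a1, the other chain of the same collagen. No level is therefore given for Hells.

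**Figure D2:**
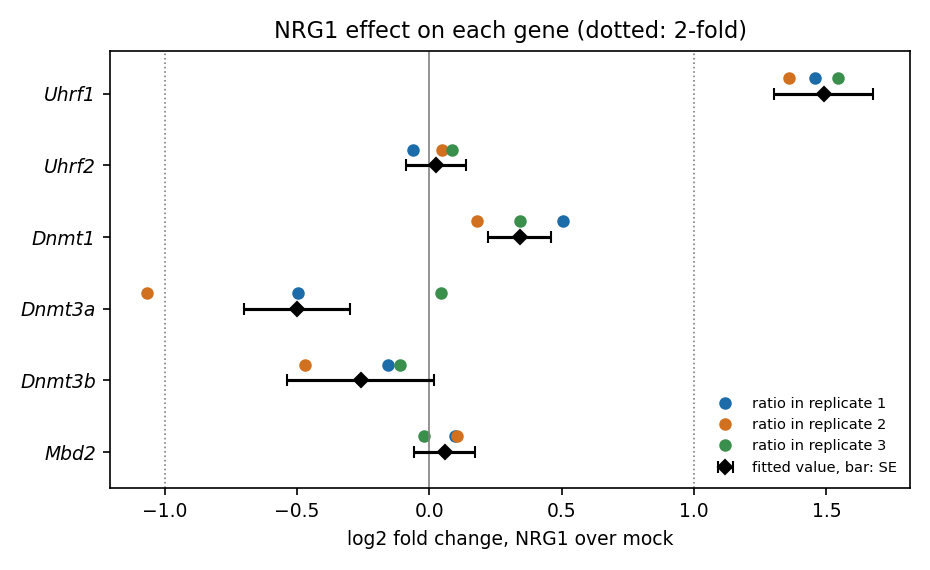
Log2 fold change of NRG1 over mock for the 6 genes tested. Coloured points are the ratios of replicate pairs 1, 2 and 3, black diamonds are the fitted values with bars of 1 SE, and dotted lines mark a 2-fold difference. The 3 ratios of Uhrf1 lie between 1.36 and 1.54, and those of Dnmt3a spread from -1.07 to 0.04.

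Genes that work with the set were counted by list, and here the edgeR quasi-likelihood test with Benjamini-Hochberg adjustment over all 9740 genes is given. At an adjusted p of at most 0.01, 615 genes (6.31%) rose and 537 (5.51%) fell over the whole table. Without the replicate block edgeR called no gene. With DESeq2 and no block, an alternative chosen after seeing the data, Gadd45a alone of the genes in these lists passed (adjusted p = 0.00063).

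Of 11 tested partners of maintenance methylation 2 rose and none fell, with a median log2 fold change of 0.14. Trim28, a corepressor that brings chromatin modifiers to zinc finger proteins, was at 197.6, 274.9 and 285.7 CPM in mock and 276.8, 425.1 and 405.4 CPM in NRG1 samples (log2 fold change 0.54, SE 0.12, adjusted p = 0.005). Its groups overlapped while each pair rose, and the call was lost when any replicate was left out, with adjusted p from 0.011 to 0.030 and a log2 fold change of 0.57 without replicate 1. Cdca7l, a relative of the HELLS activator CDCA7, had a log2 fold change of 0.76 (SE 0.17, adjusted p = 0.0058), with means of 11.5 ± 2.21 CPM (n = 3, SD) for mock and 19.9 ± 7.18 CPM (n = 3, SD) with NRG1. It was lost without replicate 2 (adjusted p = 0.026) or replicate 3 (adjusted p = 0.060) and with DESeq2 and the same block (adjusted p = 0.013), and had 0.92 without replicate 1. Pcna, the replication clamp that DNMT1 binds, had 0.14 (SE 0.14, adjusted p = 0.51) and -0.055 without replicate 2, and Ehmt1, a histone methyltransferase, 0.41 (SE 0.12, adjusted p = 0.028). Suv39h2, counted at 15 to 71 reads per library, had the highest log2 fold change of the list, 0.82 (SE 0.27, adjusted p = 0.040). These other partners did not pass the threshold.

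Among 11 tested genes that guide de novo methylation, such as histone methyltransferases and demethylases, none passed at an adjusted p of at most 0.01 by edgeR or by DESeq2, and 1 was under 0.05 before adjustment. The smallest adjusted p was that of Cxxc1, a subunit of a histone methyltransferase complex, with a log2 fold change of 0.31 (SE 0.12, adjusted p = 0.082). Kdm1a, a histone demethylase, had 0.15 (SE 0.12) and 0.10 to 0.20 when a replicate was left out. Ezh2, the Polycomb methyltransferase, had -0.14 (SE 0.12) and -0.20 to -0.04 when a replicate was left out. The median of the list was 0.02.

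Of 13 tested methyl-CpG readers and NuRD subunits 3 rose, all under a 2-fold difference, and the median was 0.07. Mbd3, the NuRD subunit that MBD2 replaces in its own form of the complex, was at 64.8, 86.9 and 106.2 CPM in mock and 108.1, 150.6 and 147.7 CPM in NRG1 samples, without overlap. Its log2 fold change was 0.66 (SE 0.12, adjusted p = 0.0014). Gatad2a, another subunit, rose by 0.53 on the log2 scale (SE 0.12, adjusted p = 0.0047) and Cdk2ap1 by 0.56 (SE 0.13, adjusted p = 0.0077). Both calls were lost without replicate 3, with adjusted p of 0.024 and 0.022, Gatad2a also without replicate 1 (adjusted p = 0.028) and Cdk2ap1 without replicate 2 (adjusted p = 0.030). Without replicate 1 the log2 fold changes were 0.63 for Mbd3, 0.51 for Gatad2a and 0.69 for Cdk2ap1.

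Of 16 tested partners of demethylation 1 rose and 1 fell. Gadd45a, a stress gene whose protein has been linked to active demethylation and to growth arrest, fell from 288.0, 353.7 and 264.6 CPM in mock to 160.9, 112.0 and 85.4 CPM in NRG1 samples. The groups did not overlap, and its log2 fold change was -1.38 (SE 0.16, adjusted p = 3.9e-05), the only change over 2-fold in that list, and was -1.64 without replicate 1. Apex1, a base excision repair endonuclease, rose by 0.59 on the log2 scale (SE 0.14, adjusted p = 0.0068), a call lost without replicate 2 (adjusted p = 0.027), and had 0.70 without replicate 1. Parp1 at 0.45 (SE 0.12, adjusted p = 0.013) and Idh1 at -0.47 (SE 0.12, adjusted p = 0.013) were just over the threshold. So was Neil1, at -0.69 (SE 0.18, adjusted p = 0.015). At an adjusted p of at most 0.05, 2 genes of this list rose and 4 fell.

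The methyl donor cycle supplies S-adenosylmethionine and removes its product, and 3 of its 8 tested genes rose, with a median of 0.23. Ahcy, which hydrolyses the product that inhibits methyltransferases, had means of 69.2 ± 19.1 CPM (n = 3, SD) for mock and 107.5 ± 25.6 CPM (n = 3, SD) with NRG1, and its log2 fold change was 0.64 (SE 0.12, adjusted p = 0.0019). Ahcyl2, a protein related to it, had 0.89 (SE 0.13, adjusted p = 0.00035). Mtap, of the methionine salvage pathway, had 0.94 (SE 0.16, adjusted p = 0.00091), and its groups did not overlap. Without replicate 1 the values were 0.63, 1.05 and 1.20 for Ahcy, Ahcyl2 and Mtap, and all 3 calls held when any replicate was left out.

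Since UHRF1 acts in S phase, replication and mitosis genes were set beside it. Of 26 tested S phase genes 2 rose, both over 2-fold, none fell, and the median was 0.12. Mcm5, a subunit of the replicative helicase, was at 3.01, 6.06 and 3.46 CPM in mock and 12.2, 10.0 and 8.51 CPM in NRG1 samples (log2 fold change 1.31, SE 0.25, adjusted p = 0.002). Cdt1, which loads that helicase at origins, was at 2.48, 2.66 and 3.70 CPM in mock and 7.32, 5.84 and 7.35 CPM in NRG1 samples (1.19, SE 0.25, adjusted p = 0.0033), and its call was lost with DESeq2 or without replicate 3 (adjusted p = 0.013 in either). Neither gene had overlapping groups, and without replicate 1 the log2 fold changes were 1.02 for Mcm5 and 1.05 for Cdt1. The other 24 were not past the threshold. Among them Cdc6, another loading factor, counted at 5 to 38 reads per library, had 1.12 (SE 0.35, adjusted p = 0.033). Mcm6, also of the helicase, had 0.48 (SE 0.14, adjusted p = 0.021), and Gins2 had 0.45 (SE 0.14, adjusted p = 0.035). E2f1 was at -0.35 (SE 0.20, adjusted p = 0.24), and Tyms, the lowest of the list, at -0.64 (SE 0.23, adjusted p = 0.057). In this list 6 genes were higher and 1 lower in NRG1 samples without overlap, beside 9.79% and 9.86% of all genes tested. In the other related lists with tested genes, 0 to 2 were higher and 0 to 3 lower without overlap. The lists differ in size, and these counts were not tested.

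None of 14 tested mitosis genes passed by edgeR or DESeq2, and none was under 0.05 before adjustment. Their median log2 fold change was -0.13, with Ccnb2 at -0.52 (SE 0.26), Aurkb at -0.52 (SE 0.31) and Plk1 at -0.28 (SE 0.23). Mki67 had 0.06 (SE 0.18), the highest value of the list, and Top2a -0.16 (SE 0.17). When a replicate was left out, Ccnb2 had -0.85 to -0.31, Aurkb -0.78 to -0.11 and Plk1 -0.37 to -0.10. Over the same fits Mki67 had -0.07 to 0.23 and Top2a -0.21 to -0.09. Of 11 germline genes in the files, which DNA methylation keeps silent in somatic cells, 7 were at 0 in every library and none passed the filter. The highest of them, Sycp3, had 1 to 8 counts. Of all 17327 genes, 13129 had a count in any library and 7587 were removed by the filter. As for Hells, a listing at 0 need not be a measure of absence, and silencing by methylation was not tested.

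**Figure D3:**
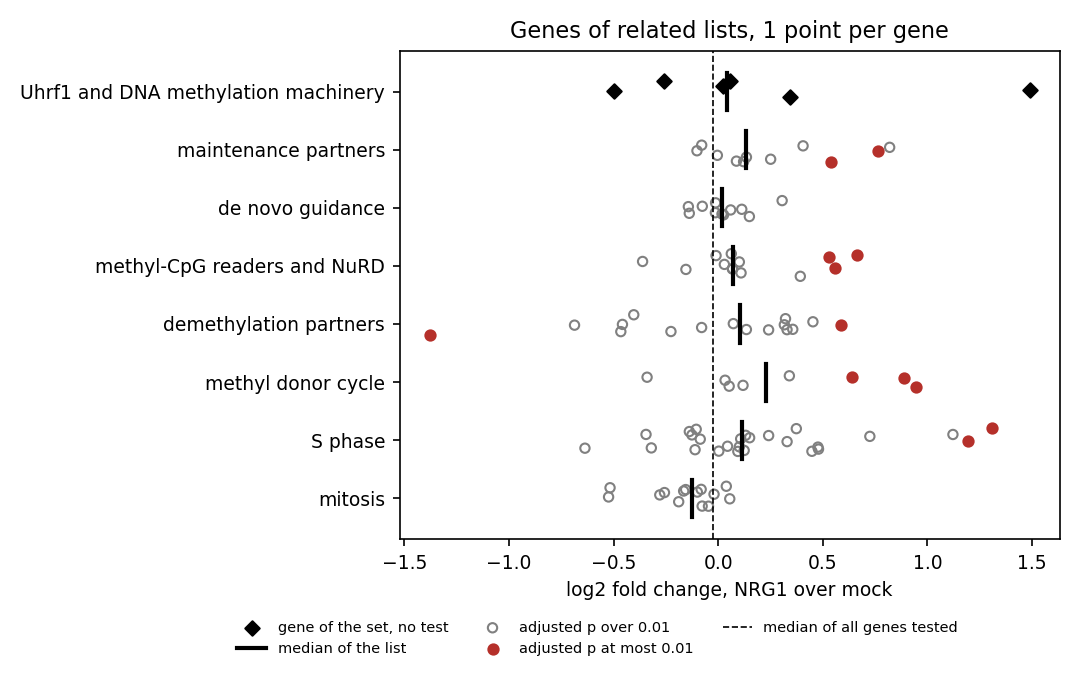
Log2 fold change of NRG1 over mock, with 1 point per tested gene of each list. Red points had an adjusted p of at most 0.01 by edgeR, open points did not, black diamonds are the set itself with no test, thick bars are list medians and the dashed line is the median of all genes tested, -0.03. The list medians lie between -0.13 and 0.23, and Gadd45a at -1.38 and Mcm5 at 1.31 are the tested partners farthest from 0.

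Gene profiles closest to that of Uhrf1 were found over the 6 samples from log2 CPM with the mean of each gene subtracted, by the root mean square difference, among the other 9739 genes. They were Nop2 at 0.12, Snrpa at 0.17, Rpl32 and Nop56 at 0.18 and Mybbp1a at 0.19, in units of log2 CPM. Nop2 encodes an rRNA methyltransferase, Nop56 and Mybbp1a nucleolar proteins and Snrpa a protein of the U1 spliceosomal particle. Nop2 had means of 13.0 ± 2.09 CPM (n = 3, SD) for mock and 32.8 ± 6.83 CPM (n = 3, SD) with NRG1, and its log2 fold change was 1.32 (SE 0.15). Rpl32, a ribosomal protein gene, was at 0.787 to 3.71 CPM, and reads it shares with near-identical copies were left out of the counting, so its value is uncertain. As the measure holds the same contrast, these 5 are named as a description.

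**Figure D4:**
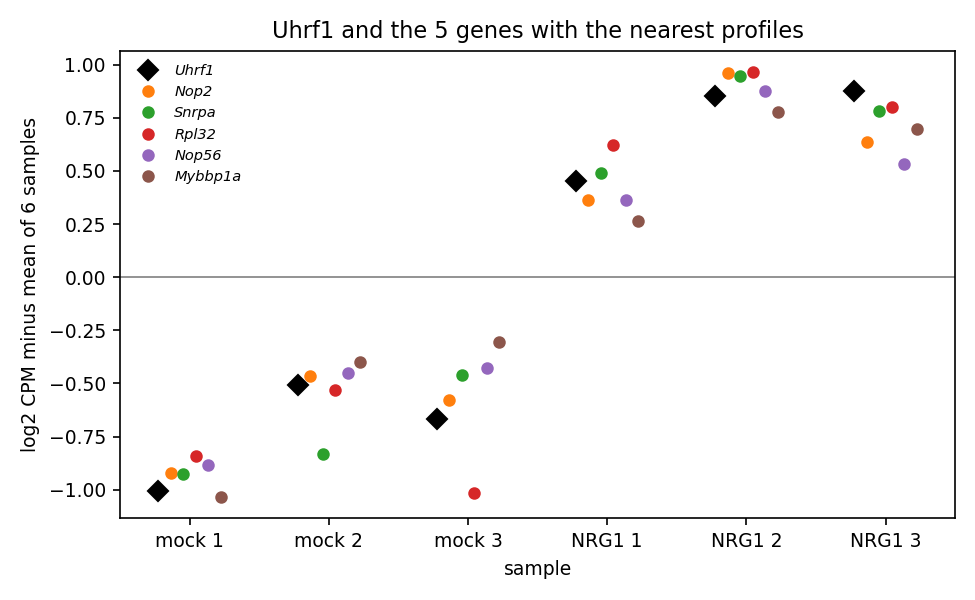
Log2 CPM minus the mean over the 6 samples (vertical axis) for Uhrf1, black diamonds, and the 5 genes with the nearest profiles, coloured points, in each mock and NRG1 sample. All 6 genes lie below 0 in the mock samples and above 0 in the NRG1 samples.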

How the data were processed

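RNA was measured in 3 mock and 3 NRG1 samples, grouped and paired by the numbers in their titles. Per the labels and the study's methods, the authors mapped reads with TopHat2 2.0.10 to the rat rn5 build, counted those of RefSeq genes with htseq (version not given in the sources used here) and deposited raw counts per gene. The 5 summary lines of each file (47.0% to 49.9% of alignments lay on genes, 24.5% to 29.9% were not unique) were kept out of library sizes. The strand setting is not given, so overlapping and antisense genes cannot be told apart. Totals on genes were 6821590 to 15475018 per library, and their depth limits genes near 3 counts.

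Genes were filtered with filterByExpr (minimum count 10, 9740 kept, 7587 removed), scaled by TMM and tested with edgeR 4.0.16 in R 4.3.3 by quasi-likelihood with the replicate number as a block, with Benjamini-Hochberg adjustment over all genes. The SE was taken as the fitted log2 value over the root of its F statistic, and pair ratios used a prior count of 2. The pairing comes from the labels: deviations from group means correlated across genes with r of 0.91, 0.67 and 0.81 for equal numbers and -0.80 to 0.51 for others. No 2 libraries of the same group were within sampling noise of each other (chi-square per degree of freedom at least 23.1). Mock libraries were not compared with NRG1 libraries in this way. The scripts were tested on simulated data. Alternatives were no block, RLE size factors, other low-count filters, DESeq2 1.42.0 with and without the block, an adjusted p of 0.05 and leaving out each replicate.

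Named genes are the set and, of each related list, every gene past both thresholds and the 3 with the smallest adjusted p beyond these. The 5 profiles nearest to Uhrf1 and part of the cell type markers were also named. Some others (Pcna, Suv39h2, Neil1, E2f1, Tyms, Mki67, Top2a, Sycp3) were added after their values were seen. The set and the lists were chosen with earlier results of these data known. Pclaf and Nsd2 were matched through RefSeq synonyms. Promoters are from RefSeq. The value of 1 Schwann cell marker of the list is not reported here.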

Additional observations from a re-analysis of the deposited data

How the results depend on the processing

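Calls at an adjusted p of at most 0.01 depended most on pairing. Without the replicate block edgeR called 0 genes, 0 of the set and 0 in every list (1334 genes were under 0.05 before adjustment, smallest adjusted p 0.14), against 1152 with it. DESeq2 with no block, chosen after seeing the data, called 184 genes, 1 demethylation partner and 0 genes of maintenance, readers, donor cycle and S phase. DESeq2 with the block left 1 maintenance and 1 S phase gene. Leaving out each replicate gave 661 (without replicate 3) to 1191 genes, 0 to 1 for maintenance, 1 to 2 for readers, 2 to 4 for demethylation and 1 to 2 for S phase. With no filter 5 demethylation genes were called. At 0.05, 2260 genes were called, with 4, 5, 6 and 5 in the maintenance, reader, demethylation and S phase lists. The log2 fold change of Uhrf1 was 1.46 to 1.54 throughout. Over the 42 named genes run under these alternatives, a sign reversed only where no call was made, for Pcna without replicate 2 (range on leaving out each replicate -0.055 to 0.29), and for Mki67 without replicate 3 (-0.072 to 0.23) and without the block (-0.019 with edgeR, -0.0094 with DESeq2). The cause of these shifts was not tested. Among the tested genes of the set depth limits Dnmt3b most, at 16 to 45 counts. Cdc6, named from the S phase list, had fewer, at 5 to 38 counts.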
